A study of Mus musculus with 16 samples.

Results

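The enzymes that cut, protect and crosslink the extracellular matrix of muscle were examined as a group of 47 genes out of the 29730 in the count table. Members were taken by name: all protein-coding genes of the Mmp, Timp, Lox and Loxl, and Adamts families whose Ensembl identifier had a row, which gave 19 Mmp, 4 Timp, 5 Lox or Loxl and 19 Adamts genes. Another 3 genes of the same name pattern, Mmp1b, Mmp7 and Mmp20, had no row. The name rule itself uses no measured value, but the families were picked with earlier results of these data known. RNA had been sequenced from the tibialis anterior, the shin muscle that lifts the foot, in 16 samples from male C57BL/6N mice that were 7 weeks old. Wild-type mice received phosphate-buffered saline (WT_PBS) or the antisense oligonucleotide ASO1 directed at Dnm2 (WT_ASO), and Bin1mck-/- knockout mice received the same saline (KO_PBS) or ASO1 (KO_ASO), with 4 samples a group. Bin1 encodes a protein that bends membranes and Dnm2 a GTPase that cuts them, and the series asks whether lowering Dnm2 alters this recessive centronuclear myopathy model. The meaning of "mck", the deleted part of Bin1, the dose and the schedule were not given in the sources used here. None of the 4 groups received an oligonucleotide of another sequence, so the lowering of Dnm2 and the injection of an oligonucleotide cannot be told apart.

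Matrix metalloproteinases (Mmp genes) are zinc enzymes, secreted or held at the cell surface, that cut collagens, laminins and other matrix proteins and release growth factors from them. Tissue inhibitors of metalloproteinases (Timp genes) bind their active site and block them. The Adamts enzymes are secreted relatives with thrombospondin repeats, several of which cut proteoglycans such as versican or remove the propeptides of collagen. Lysyl oxidase (Lox) and its relatives (Loxl genes) oxidise lysines of collagen and elastin, the step that leads to crosslinks between the fibres. In skeletal muscle these enzymes are made by fibroblasts, immune cells, vessel cells and fibres, and they are known for their part in the remodelling of connective tissue after injury and in fibrosis.

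Libraries held 27.6 to 40.9 M counts. Levels are given as CPM, counts relative to a common library size, after TMM scaling (edgeR's trimmed mean of M values), and a member was called when the quasi-likelihood test of edgeR, adjusted over all 14960 genes tested, gave P under 0.05. The labels were checked first on the genes they name. Bin1 lay between 463 and 620 CPM in the wild-type samples and between 31.7 and 47.7 CPM in the knockout samples. Dnm2 lay between 50.2 and 67.7 CPM in the 8 saline samples and between 20.7 and 31.1 CPM in the 8 ASO1 samples, so neither gene overlapped between the labelled groups. The summed CPM of 7 genes of the fast muscle fibre was 178000 to 222000 in WT_PBS, 190000 to 259000 in WT_ASO, 137000 to 159000 in KO_PBS and 158000 to 178000 in KO_ASO, so that it was high in every sample and the KO_PBS samples lay below the WT_PBS samples. In bulk muscle, fewer cells of a type and less RNA per cell cannot be told apart.

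The control regions of 3 members are shown because their levels carry the patterns described in the text: Timp1, the member with the highest log2 fold change in KO_PBS among those that passed the filter on low counts, and Mmp13 and Mmp3, near neighbours on chromosome 9 whose high values came from single samples or from 1 group. Each stretch holds the 250 bases before the annotated start of transcription, from RefSeq on GRCm38.p6, 5′ to 3′ on the plus strand. Capitals mark TGANTCA, the AP-1 motif, which is its own reverse complement, TGTGGT or its reverse complement ACCACA, the core of the Runx motif, and TATAAA, the TATA box, searched on the strand of the gene only.
Timp1, chrX:20869916-20870165: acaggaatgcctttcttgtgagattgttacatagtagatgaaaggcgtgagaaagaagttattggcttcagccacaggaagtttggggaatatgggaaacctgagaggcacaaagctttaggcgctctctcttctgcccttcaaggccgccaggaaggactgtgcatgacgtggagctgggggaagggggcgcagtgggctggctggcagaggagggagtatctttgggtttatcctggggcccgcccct
Mmp13, chr9:7272264-7272513: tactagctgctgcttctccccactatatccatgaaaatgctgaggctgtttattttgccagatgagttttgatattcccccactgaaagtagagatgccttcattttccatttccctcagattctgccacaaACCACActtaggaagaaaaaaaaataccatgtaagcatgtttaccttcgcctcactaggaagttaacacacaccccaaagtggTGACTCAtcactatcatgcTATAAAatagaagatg
Mmp3, chr9:7445572-7445821: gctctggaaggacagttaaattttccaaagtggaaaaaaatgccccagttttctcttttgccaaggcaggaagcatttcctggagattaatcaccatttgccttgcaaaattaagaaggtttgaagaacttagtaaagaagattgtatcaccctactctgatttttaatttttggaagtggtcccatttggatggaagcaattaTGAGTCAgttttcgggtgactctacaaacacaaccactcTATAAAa
The Mmp13 stretch held an AP-1 motif at 35 to 29 bases before the start, a Runx core at 118 to 113 and a TATA box at 16 to 11. The Mmp3 stretch held an AP-1 motif at 46 to 40 bases before the start and a TATA box at 7 to 2, and the Timp1 stretch held none of these letter strings. The AP-1 string occurred in 6.75% of the same 250 bases of the 32851 promoters in the RefSeq table, the Runx string in 14.0% and the TATA box in 7.59%. Among the 31 promoters of the 29 members in that table, 4 held the AP-1 string, 4 the Runx string and 5 the TATA box. A match of letters describes the sequence and shows no binding. It also does not show that TATAAA acts as a TATA box at these distances from the annotated start.

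The inhibitors Timp3 and Timp2 were the most abundant members per length of transcript over all samples. On the scale of CPM per kilobase (kb) of exonic length, Timp3, an inhibitor that stays bound to the matrix, had the highest mean level over the 16 samples at 23.0 ± 5.34 (SD), with samples from 15.3 to 30.8. Timp2, which also takes part in the activation of pro-Mmp2, followed at 20.1 CPM per kb, and their ranges overlapped (15.5 to 28.0 for Timp2). The gelatinase Mmp2 was the most abundant protease at 10.4 CPM per kb, ahead of the membrane-bound Mmp15 at 5.16. Timp4, the inhibitor known for its expression in striated muscle, measured 9.43 CPM per kb. Timp1, an inhibitor known to rise in injured tissue, had a mean of 8.15 CPM per kb over the 16 samples, but its group means were 2.06 in WT_PBS, 1.76 in WT_ASO, 25.3 in KO_PBS and 3.5 in KO_ASO. In KO_PBS that mean stood above those of Timp2 (22.1 CPM per kb) and Timp3 (19.4), but this rests on replicate 1, at 48.9 CPM per kb, without which the mean of Timp1 was 17.4 CPM per kb, below Timp2 (22.2) and Timp3 (20.5) in the same 3 samples. In WT_PBS Timp3 (27.9) and Timp2 (19.9) stood far above it. Among the Adamts genes the aggrecanase and versicanase Adamts1 measured 7.01 CPM per kb and Adamts8 4.30, and among the crosslinking enzymes Loxl1, known for its part in elastin fibres, measured 3.32 and Loxl2 2.15. The levels of neighbours in this order overlapped between samples throughout these leading members. Of the 47 members 38 passed the filter on low counts. The other 9, namely Mmp8, Mmp10, Mmp12, Mmp16, Mmp21, Mmp24, Mmp25, Adamts13 and Adamts19, had mean counts between 0.06 and 8.12 and were left out of the 14960 genes tested.

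**Figure D1:**
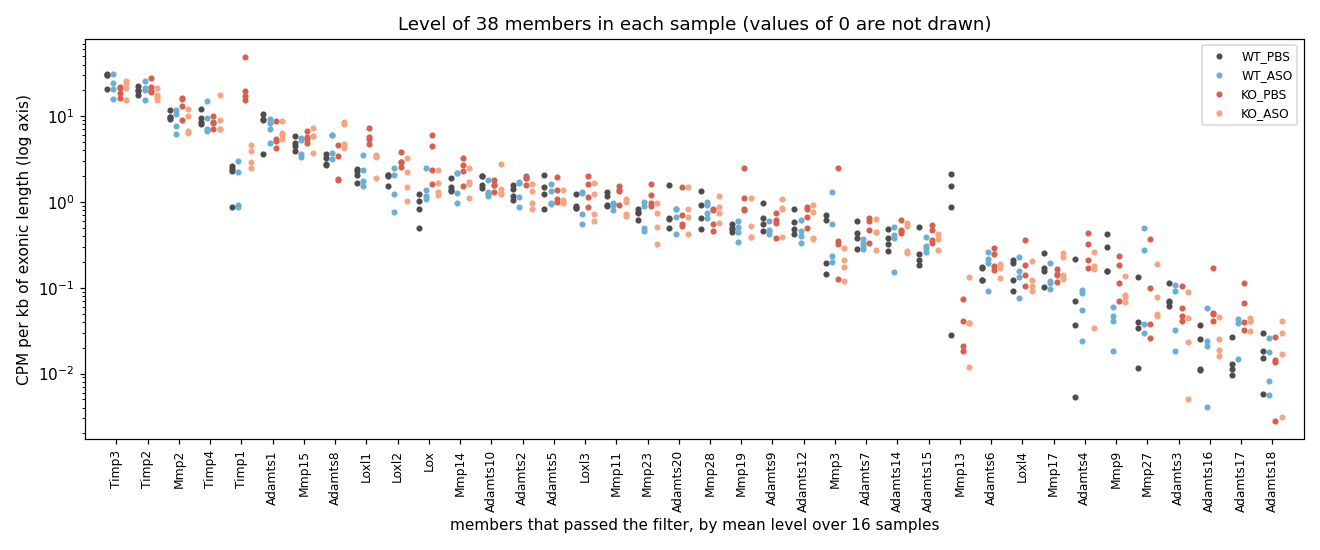
Level of the 38 members that passed the filter, as CPM per kb of exonic length on a log axis, in order of their mean over 16 samples. Each point is 1 sample, coloured by group, and values of 0 are not drawn. Timp3 and Timp2 stand first at means of 23.0 and 20.1 CPM per kb, and the KO_PBS samples of Timp1 and 3 WT_PBS samples of Mmp13 lie above all other samples of the same gene.

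In untreated knockout muscle, Timp1 and the crosslinking enzymes Lox and Loxl1 rose, together with Mmp19 and Adamts17, and Mmp13 fell. In KO_PBS vs WT_PBS 6 of the 38 members tested were called, 5 higher and 1 lower, which is 15.8% of them, where 12.6% of all genes tested were called (7.43% higher and 5.12% lower). The groups did not overlap for 8 members, all higher in KO_PBS, or 21.1%, where 20.4% of all genes did not overlap (10.5% higher). With both directions together the shares of the members lay near those of all genes. For higher values alone they were 13.2% called against 7.43% of all genes and 21.1% not overlapping against 10.5%. The median log2 fold change (log2FC) of the members was 0.33, with 24 positive and 14 negative values, and that of all genes was -0.0108. With library totals in place of TMM the median of all genes moved to 0.139 in this comparison, and the direction of the values given here for Timp1, Lox, Loxl1, Loxl2, Loxl3, Loxl4, Mmp13, Mmp19 and Adamts17 did not change. That scaling gave 1942 higher and 260 lower calls over all genes, against 1112 and 766 with TMM.

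Among the inhibitors, Timp1 (ENSMUSG00000001131, chromosome X, 20870166 to 20874735, plus strand, GRCm38) changed most. It lies within Syn1, which is read from the other strand. Timp1 measured 2.05, 0.782, 2.13 and 2.36 CPM in WT_PBS replicates 1 to 4 and 43.4, 17.4, 13.8 and 15.1 CPM in KO_PBS. The groups were far apart, and KO_PBS replicate 1 stood above the other 3 knockout samples. Timp1 was 12.1-fold higher in KO_PBS (log2FC 3.59 ± 0.47 SE, adjusted P = 0.000173, edgeR; exact permutation P = 0.0286, two-sided, n = 4 and 4, the smallest this design allows). Without KO_PBS replicate 1 the log2FC was 3.06 and the gene stayed called. The other inhibitors were not called: Timp2 had a log2FC of 0.15 ± 0.15 SE (adjusted P = 0.577, edgeR), and Timp3 one of -0.53 ± 0.20 SE (adjusted P = 0.0900, edgeR). Timp3 measured 169, 244, 251 and 245 CPM in WT_PBS and 131, 176, 173 and 151 CPM in KO_PBS, so that WT_PBS replicate 1 was low in its group and lay within the knockout range. Without that replicate Timp3 was called lower at a log2FC of -0.64 (adjusted P = 0.0484, edgeR).

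The crosslinking enzymes all had positive log2FC values in KO_PBS vs WT_PBS, and 2 of the 5 were called. Lox (ENSMUSG00000024529, chromosome 18, 52516067 to 52529867, minus strand) measured 4.91, 3.91, 2.36 and 5.89 CPM in WT_PBS and 21.5, 11.4, 7.78 and 28.5 CPM in KO_PBS. All knockout samples lay above all wild-type saline samples, with a wide spread from replicate 3 to replicate 4. Lox was 4.04-fold higher (log2FC 2.02 ± 0.41 SE, adjusted P = 0.00500, edgeR; exact permutation P = 0.0286). Loxl1 (ENSMUSG00000032334, chromosome 9, 58287738 to 58313186, minus strand) measured 7.55, 6.78, 7.99 and 5.47 CPM in WT_PBS and 23.9, 15.8, 18.8 and 18.0 CPM in KO_PBS. Its groups were well separated and it was 2.76-fold higher (log2FC 1.46 ± 0.25 SE, adjusted P = 0.00127, edgeR; exact permutation P = 0.0286). Loxl2, which acts on the type IV collagen of basement membranes, measured 10.9, 11.1, 8.38 and 11.1 CPM in WT_PBS and 13.8 to 20.6 CPM in KO_PBS. These groups did not overlap either, but the log2FC of 0.67 ± 0.34 SE had an adjusted P of 0.220 (edgeR), and with the compared groups only it was called (adjusted P = 0.0122, edgeR). Loxl3 and Loxl4 had log2FC values of 0.55 (adjusted P = 0.317, edgeR) and 0.36 (adjusted P = 0.622, edgeR) with overlapping groups, and exons of Loxl3 overlap Htra2 on the other strand.

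Of the 12 metalloproteinases tested, Mmp19 rose and Mmp13 fell. Mmp19 (ENSMUSG00000025355, chromosome 10, 128790910 to 128800824, plus strand), a secreted protease of basement membrane proteins, measured 1.75, 1.71, 1.58 and 1.96 CPM in WT_PBS and 3.97, 2.89, 2.85 and 8.90 CPM in KO_PBS. The groups did not overlap, and KO_PBS replicate 4 was the highest of all samples. Mmp19 was 2.66-fold higher (log2FC 1.41 ± 0.38 SE, adjusted P = 0.0228, edgeR; exact permutation P = 0.0286), and without KO_PBS replicate 4 its log2FC was 0.89 and its call was lost (adjusted P = 0.0781, edgeR). The call was also lost without WT_PBS replicate 2, 3 or 4, at adjusted P values of 0.0571, 0.0585 and 0.0525 (edgeR). Exons of Mmp19 overlap Tmem198b on the other strand, and the strand setting of the count was not given in the sources used here.

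Collagenase 3, Mmp13 (ENSMUSG00000050578, chromosome 9, 7272514 to 7283331, plus strand), is known from bone and cartilage. It measured 2.34, 0.0745, 4.12 and 5.59 CPM in WT_PBS and 0.110, 0.0567, 0.0488 and 0.197 CPM in KO_PBS. Only 3 of the 4 wild-type saline samples were high, and replicate 2, with 2 counts, lay within the knockout range. The log2FC was -4.83 ± 0.95 SE (adjusted P = 0.00616, edgeR), but the exact permutation P was 0.0857 and limma-voom did not call it (adjusted P = 0.0652). In WT_ASO all 4 samples had 0 counts of Mmp13. Against a floor of 3 counts over that group, WT_PBS, with 464 counts in all, was at least 149-fold higher. In KO_ASO the gene measured 0.353, 0.0320, 0.104 and 0.105 CPM, so that the wild-type saline group alone held samples above 1 CPM.

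The bone sialoprotein gene Ibsp, from the list of cartilage and bone markers, was high in the same WT_PBS samples as Mmp13. Ibsp measured 1.02, 0, 2.23 and 4.29 CPM in WT_PBS replicates 1 to 4 and 0.136 CPM or less in every other sample. The osteoblast factor gene Sp7 measured 0.263, 0, 0.233 and 0.376 CPM in WT_PBS and at most 0.0834 CPM elsewhere. The other genes of the list did not all share this pattern. Col2a1 was highest in WT_ASO, at 1.09 and 1.78 CPM in replicates 3 and 4, and its WT_PBS replicate 2 (0.447 CPM) lay above replicates 1 and 3. Bglap had 4, 1, 0 and 2 counts in WT_PBS. Acp5 measured 1.58, 0.67, 1.37 and 3.21 CPM in WT_PBS, lowest in replicate 2 and highest in replicate 4. It also reached 1.6 CPM in WT_ASO and 2.91 CPM in KO_PBS, and was 0.941 CPM or less in KO_ASO. Acan measured 0.351, 0.149, 0.804 and 0.501 CPM in WT_PBS and 0.327 CPM or less elsewhere. The summed CPM of the 6 genes of that list ran from 1.30 to 8.95 in WT_PBS, from 0.637 to 3.17 in WT_ASO, from 1.13 to 3.35 in KO_PBS and from 1.05 to 2.16 in KO_ASO, and 3 of the 6 passed the filter, Ibsp and Sp7 not among them. The defining markers Ibsp and Bglap had 0 counts in all WT_ASO samples. The part of these markers in the Mmp13 values was not tested.

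Mmp9, the gelatinase of neutrophils and osteoclasts, was looked at after its values were seen. It measured 0.556, 0.559, 1.06 and 1.5 CPM in WT_PBS, 0.0655, 0.145, 0.213 and 0.167 CPM in WT_ASO, 0.248 to 0.838 CPM in KO_PBS and 0.244 to 0.489 CPM in KO_ASO. The WT_ASO samples were the lowest 4 of the 16. In WT_ASO vs WT_PBS the log2FC was -2.62 ± 0.47 SE with an adjusted P of 0.131 (edgeR; exact permutation P = 0.0286), while DESeq2 called it (adjusted P = 0.00120).

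**Figure D2:**
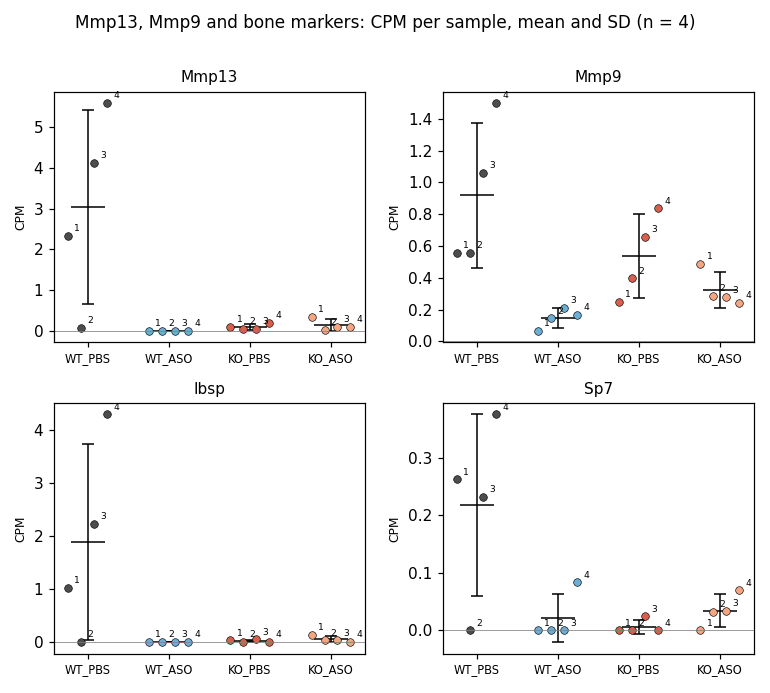
CPM of Mmp13, Mmp9 and the bone markers Ibsp and Sp7 in each of the 16 samples by group. Points are samples with their replicate number, and bars give the mean and SD of 4 samples. WT_PBS replicates 1, 3 and 4 are high for Mmp13 and Ibsp, while replicate 2 sits at 0.0745 CPM for Mmp13 and at 0 for Ibsp.

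Other metalloproteinases of note were abundant or had 1 sample apart. Mmp2 measured 30.9 to 39.5 CPM in WT_PBS and 30.5 to 54.3 CPM in KO_PBS, with a log2FC of 0.41 (adjusted P = 0.280, edgeR). Its activator Mmp14, a membrane-bound collagenase, had a log2FC of 0.69 (adjusted P = 0.121, edgeR; 0.048 with the compared groups only), and Mmp15 had one of 0.24 (adjusted P = 0.485, edgeR). Stromelysin 1, Mmp3, measured 0.351, 1.12, 0.259 and 1.28 CPM in WT_PBS and 0.579, 0.227, 0.634 and 4.51 CPM in KO_PBS. KO_PBS replicate 4 alone was high, and without it the log2FC went from 1.0 to -0.62, neither of which was called (adjusted P = 0.466 and 0.619, edgeR).

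Among the 17 Adamts genes tested, Adamts17 was the one called in KO_PBS vs WT_PBS. Adamts17 (ENSMUSG00000058145, chromosome 7, 66839735 to 67153171, plus strand), known from human short stature with eye defects and from fibrillin biology, was near the lower end of what was measured. It had 3, 2, 8 and 4 counts in WT_PBS and 32, 11, 21 and 10 counts in KO_PBS, or 0.0745 to 0.208 CPM and 0.247 to 0.882 CPM. The log2FC was 1.98 ± 0.60 SE (adjusted P = 0.0404, edgeR; exact permutation P = 0.0286). Without KO_PBS replicate 1, the highest sample, the adjusted P was 0.16 (edgeR), and the call was also lost without KO_PBS replicate 3, without WT_PBS replicate 1, 2 or 4, and without KO_ASO replicate 2 or 3. Adamts16 was 0.0745 to 0.251 CPM in WT_PBS and 1.16, 0.283, 0.341 and 0.345 CPM in KO_PBS, where replicate 1 stood apart (log2FC 1.81 ± 0.61 SE, adjusted P = 0.0640, edgeR). Without that replicate its log2FC was 1.11 (adjusted P = 0.299, edgeR). DESeq2 called Adamts16 (adjusted P = 0.0438). EdgeR called it with library totals (adjusted P = 0.0404) and without WT_ASO replicate 3 or 4 (adjusted P = 0.049 and 0.0453). The abundant Adamts1 had a log2FC of -0.46 (adjusted P = 0.360, edgeR).

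**Figure D3:**
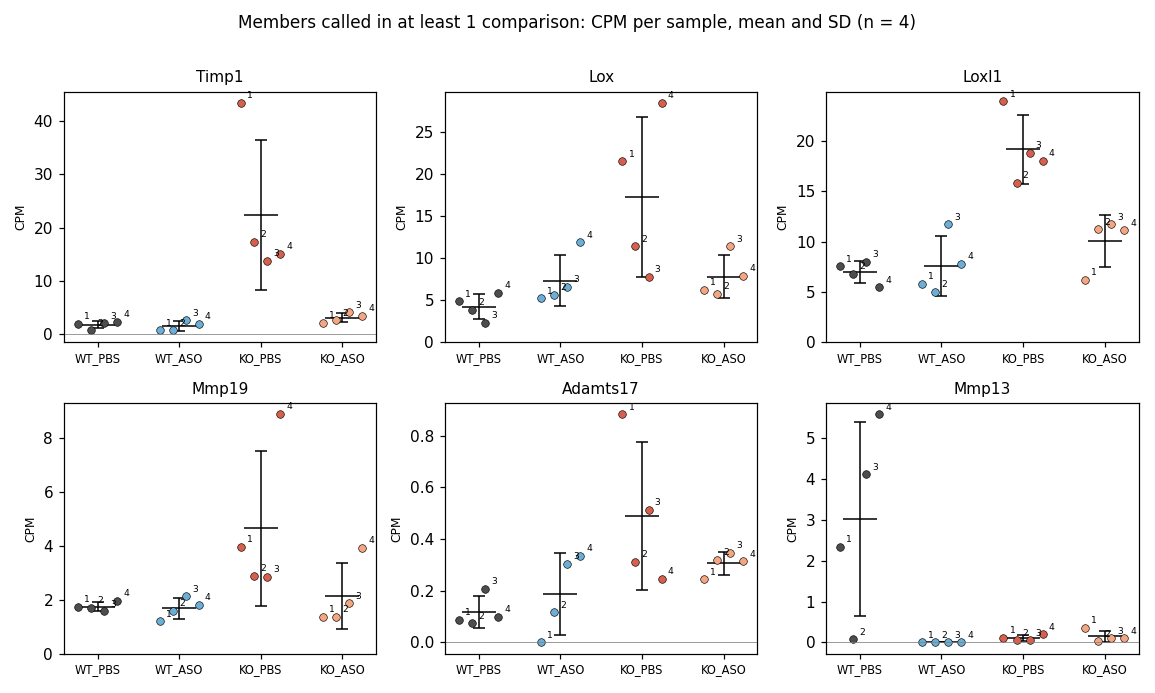
CPM of the 6 members called in KO_PBS vs WT_PBS, by group, in each of the 16 samples. Points are samples with their replicate number, and bars give the mean and SD of 4 samples. Timp1, Lox, Loxl1, Mmp19 and Adamts17 are higher in all KO_PBS samples than in all WT_PBS samples, and Mmp13 is high in 3 WT_PBS samples.

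In knockout mice given ASO1, Timp1 and Loxl1 fell against knockout mice given saline. In KO_ASO vs KO_PBS these were the 2 members called of 38, or 5.26%, where 3.64% of all genes were called (2.83% lower). The groups did not overlap for the same 2 members, both lower, where 10.4% of all genes did not overlap (6.34% lower). The median log2FC of the members was -0.39, with 26 negative and 12 positive values, and that of all genes was 0.0102. This comparison shares the KO_PBS samples with KO_PBS vs WT_PBS, so a high KO_PBS value raises the change in one and lowers it in the other, and the directions of the 2 comparisons are not independent.

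Timp1 measured 2.2, 2.62, 4.12 and 3.48 CPM in KO_ASO, against 13.8 to 43.4 CPM in KO_PBS. Every treated knockout sample lay below every saline knockout sample, and replicates 2, 3 and 4 lay above the highest WT_PBS sample. Timp1 fell by 2.86 on the log2 scale (SE 0.45, adjusted P = 0.00296, edgeR; exact permutation P = 0.0286), a level 7.25-fold lower. Without KO_PBS replicate 1 the log2FC was -2.33 and the call was kept. Loxl1 measured 6.19, 11.2, 11.7 and 11.1 CPM in KO_ASO, where replicate 1 stood below the others, and 15.8 to 23.9 CPM in KO_PBS. Loxl1 fell by 0.93 on the log2 scale (SE 0.24, adjusted P = 0.0440, edgeR; exact permutation P = 0.0286), or 1.91-fold. Its adjusted P lay close to the threshold, and 13 of 23 other settings did not call it, with values up to 0.149 without KO_PBS replicate 1.

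Lox measured 6.25, 5.75, 11.4 and 7.91 CPM in KO_ASO, and replicates 3 and 4 lay within the KO_PBS range of 7.78 to 28.5 CPM. Its log2FC was -1.15 ± 0.40 SE (adjusted P = 0.129, edgeR; DESeq2 called it at 0.0365). The log2FC of Loxl2 was -0.61, of Loxl3 -0.41 and of Loxl4 -0.60, so all 5 crosslinking enzymes had negative values, also with library totals as the scale, and Loxl1 alone was called. With each sample left out in turn these 3 stayed negative and not called, from -0.96 (without KO_ASO replicate 4) to -0.39 (without KO_ASO replicate 1) for Loxl2, from -0.72 (without KO_ASO replicate 3) to -0.19 (without KO_PBS replicate 1) for Loxl3 and from -0.89 (without KO_ASO replicate 3) to -0.15 (without KO_PBS replicate 4) for Loxl4. Mmp19 measured 1.38, 1.37, 1.87 and 3.94 CPM in KO_ASO, with replicate 4 the highest, as replicate 4 was in KO_PBS. Its log2FC was -1.13 ± 0.37 SE (adjusted P = 0.110, edgeR; called at 0.043 with DESeq2 and 0.0385 with limma-voom). Without KO_PBS replicate 4 it was -0.61 (adjusted P = 0.343, edgeR), and without KO_ASO replicate 4 it was -1.60 and called (adjusted P = 0.0191, edgeR). Mmp2 had a log2FC of -0.61 (adjusted P = 0.177, edgeR) and Mmp3 one of -2.07 (adjusted P = 0.228, edgeR), which was -0.45 at its smallest among the other settings.

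Adamts8, a protease with activity on aggrecan and on angiogenesis in experimental systems, had the highest log2FC of all members in this comparison. It measured 8.22, 8.44, 15.7 and 21.1 CPM in KO_PBS and 39.8, 37.9, 19.4 and 22.1 CPM in KO_ASO. KO_PBS replicate 4 and KO_ASO replicate 3 overlapped, and the WT_PBS samples lay between 12.5 and 16.8 CPM. The log2FC was 1.15 ± 0.32 SE (adjusted P = 0.0636, edgeR; exact permutation P = 0.0571), and DESeq2 and limma-voom called it.

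**Figure D4:**
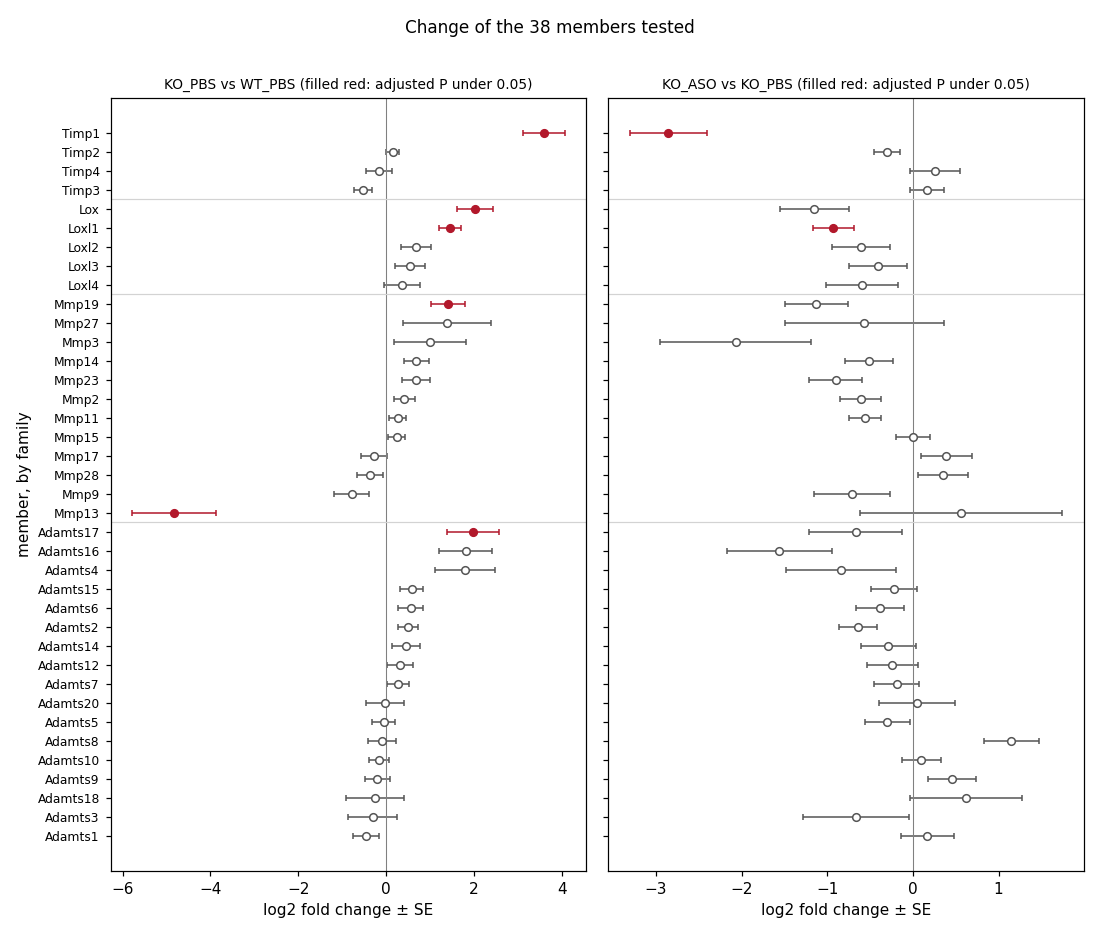
The log2FC with its SE of the 38 members tested, for KO_PBS vs WT_PBS and KO_ASO vs KO_PBS, by family and in the order of the first comparison. Filled red points were called. In KO_PBS vs WT_PBS 6 members are called and the 5 crosslinking enzymes lie right of 0, and in KO_ASO vs KO_PBS 2 members are called and the same 5 enzymes lie left of 0.

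In wild-type mice edgeR called no member after ASO1, while DESeq2 called Mmp9 and Mmp13. In WT_ASO vs WT_PBS 0 of 38 members were called by edgeR, where 0.00668% of all genes were called, and limma-voom called 0. Mmp9 and Mmp13, 2 members, had unadjusted P values under 0.05 in edgeR, as had 965 of all 14960 genes, and the calls of DESeq2 (adjusted P = 0.00120 and 2.24e-06) were among 33 of 14960 genes. EdgeR called Mmp9 without the filter (adjusted P = 0.0301) and Mmp13 without WT_PBS replicate 2, its low sample (adjusted P = 0.00081). The groups did not overlap for these 2 members, both lower, or 5.26%, where 3.22% of all genes did not overlap (1.42% lower). Timp1 measured 0.785, 0.810, 2.67 and 2.0 CPM in WT_ASO and Lox 5.24, 5.67, 6.62 and 11.9 CPM. Both genes overlapped the WT_PBS range.

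Treated knockout muscle was compared with both wild-type groups. In KO_ASO vs WT_PBS edgeR called 0 of 38 members (0.0401% of all genes), with unadjusted P values under 0.05 for 5 (1229 of all 14960 genes), while DESeq2 called 1, Mmp13, among 95 of 14960 genes, and limma-voom 0 among 5. The groups did not overlap for 3 members, or 7.89%, where 5.39% of all genes did not overlap. The log2FC of Timp1 was 0.73 ± 0.46 SE (adjusted P = 0.733, edgeR), of Lox 0.87 ± 0.41 SE (adjusted P = 0.607, edgeR) and of Loxl1 0.53 ± 0.25 SE (adjusted P = 0.596, edgeR), and the groups overlapped for all 3. In KO_ASO vs WT_ASO edgeR called 0 of 38 members (0.0735% of all genes), with unadjusted P values under 0.05 for 3 (2262 of all 14960 genes), while DESeq2 called 1, Mmp13, among 422 of 14960 genes, and limma-voom 0 among 2. The groups did not overlap for 2 members, or 5.26%, where 6.97% of all genes did not overlap.

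Whether ASO1 acted differently in the 2 genotypes was tested by the interaction. EdgeR called 0 of 38 members, where 0.575% of all genes were called, with unadjusted P values under 0.05 for 7. Of all 14960 genes 1899 had unadjusted P values under 0.05 in edgeR. DESeq2 called 3 members, Timp1, Lox and Mmp13, among 385 of the 14960 genes, and limma-voom called 0, among 104. Timp1 had the value -2.62 ± 0.65 SE (adjusted P = 0.0846, edgeR; 0.0133 with DESeq2), Lox had -1.93 ± 0.57 SE (adjusted P = 0.152, edgeR; 0.0176 with DESeq2) and Loxl1 had -1.06 ± 0.34 SE (adjusted P = 0.192, edgeR). Mmp13 had a positive value (adjusted P = 0.0704, edgeR, the lowest of the members; 6.67e-05 with DESeq2), opposite in sign to these 3. Its size is not given because all WT_ASO samples were at 0 counts of Mmp13. The falls of Timp1 and Loxl1 in knockout mice were therefore not shown by edgeR to differ from the values in wild-type mice.

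Markers of the muscle fibre and of other cells moved in the same comparisons as these members. Of the 7 fibre genes, 3 were called lower in KO_PBS vs WT_PBS, namely Atp2a1 (log2FC -0.43), Pvalb (-0.73) and Tnnt3 (-0.40), and none was called in KO_ASO vs KO_PBS. The smooth muscle genes Myh11 and Tagln, 2 of 5 on their list, were called lower in KO_PBS vs WT_PBS at -0.45 and -0.49. Of 4 satellite cell and myoblast genes, Pax7 and Myf5 were called lower at -1.39 and -1.30 and Myog, a factor of myoblast differentiation, was called higher at 2.70. Myog was also called higher in KO_ASO vs WT_PBS (log2FC 1.94, adjusted P = 0.0418, edgeR), where 0.0401% of all genes were called. All 10 macrophage markers tested were called higher in KO_PBS vs WT_PBS and 7 of 10 lower in KO_ASO vs KO_PBS. Their summed CPM was 48.1 to 78.0 in WT_PBS, 50.3 to 111 in WT_ASO, 213, 127, 127 and 376 in KO_PBS replicates 1 to 4, and 52.0 to 81.3 in KO_ASO, and no marker of the list was at 0 in all samples of a group. KO_PBS replicate 4, the highest sample of this sum, was also the highest for Mmp3, Mmp19 and Lox, whereas Timp1 was highest in replicate 1. The same replicate 4 had the highest sum of 5 adipocyte markers, 75.6 CPM against 1.87 to 20.7 in the other KO_PBS samples and at most 55.2 elsewhere, and none of these 5 was called in either comparison. The summed CPM of 9 neutrophil markers was 6.66 in KO_PBS replicate 4 and 2.22 or less elsewhere, and 1 of the 9, S100a9, passed the filter. Ly6g was at 0 in all samples of WT_PBS, KO_PBS and KO_ASO. Of 8 fibroblast markers 4 (Dcn, Dpt, Pdgfra and Pi16) were called higher in KO_PBS vs WT_PBS and 1 (Dcn) lower in KO_ASO vs KO_PBS, with sums of 830 to 1100 CPM in WT_PBS, 414 to 1310 in WT_ASO, 1110 to 1880 in KO_PBS and 479 to 1470 in KO_ASO. Of 6 tendon markers, Scx alone was called, higher (log2FC 2.24) and then lower (-1.31). None of 5 endothelial and 4 Schwann cell markers was called in either comparison. The part of these cell types in the changes of the members was not tested. Without KO_PBS replicate 4, Timp1, Lox and Loxl1 were still called in KO_PBS vs WT_PBS, as were Mmp13 and Adamts17, while the call of Mmp19 in that comparison (adjusted P = 0.0781, edgeR) and that of Loxl1 in KO_ASO vs KO_PBS (adjusted P = 0.0724, edgeR) were lost.

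**Figure D5:**
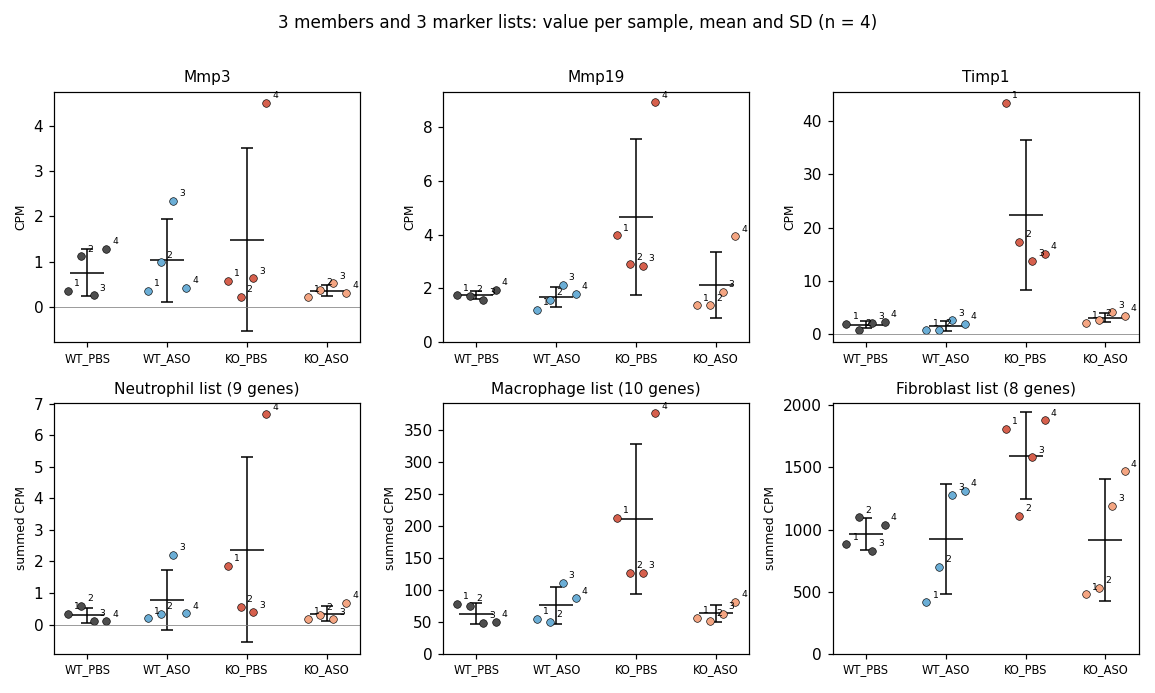
CPM of Mmp3, Mmp19 and Timp1 and summed CPM of the neutrophil, macrophage and fibroblast marker lists in each of the 16 samples by group. Points are samples with their replicate number, and bars give the mean and SD of 4 samples. KO_PBS replicate 4 is highest for Mmp3 (4.51 CPM), Mmp19 (8.90 CPM) and both immune lists, and KO_PBS replicate 1 is highest for Timp1 (43.4 CPM).

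Genes that act with the members were read from lists of general knowledge. The shares of all genes tested to set beside these counts were 7.43% higher and 5.12% lower in KO_PBS vs WT_PBS. They were 3.64% called (2.83% lower) in KO_ASO vs KO_PBS and 0.575% called in the interaction. Of 20 tested regulators, such as cathepsins, proprotein convertases and procollagen proteinase enhancers, those called higher in KO_PBS vs WT_PBS included Ctsl, Ctss, Pcolce2 and Pcsk5, and 1, the serine protease inhibitor Serpine2, was called lower. Ctsl had a log2FC of 0.40 ± 0.0872 SE (adjusted P = 0.00697, edgeR), and Serpine2 had one of -0.47 ± 0.10 SE (adjusted P = 0.00684, edgeR). In KO_ASO vs KO_PBS, 4 of the 20 were called lower (Ctsl, Ctss, Pcolce2 and Pcsk6) and 1, the serine protease Htra1, higher. Ctsl and Pcolce2, an enhancer of collagen propeptide removal, were also called in the interaction (adjusted P = 0.0405 and 0.0499, edgeR). Of 18 tested substrates, versican (Vcan) and fibrillin 1 (Fbn1) were called higher in KO_PBS vs WT_PBS at log2FC values of 1.72 and 1.29, and Vcan was called lower in KO_ASO vs KO_PBS at -1.35. Of 14 partners in collagen and elastin processing, the transglutaminase Tgm2 was called higher in KO_PBS vs WT_PBS at 0.46 and was not called in KO_ASO vs KO_PBS. Of 13 relatives outside the name rule, Adam19, a membrane-bound protease, was called higher at 1.43 and then lower at -1.32, again with KO_PBS in both comparisons.

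Among the members taken out by the filter, the macrophage elastase Mmp12 measured 0.607, 0.538, 0.195 and 0.542 CPM in KO_PBS and at most 0.304 CPM in the other groups, so that 3 KO_PBS samples were high on a mean of 8.12 counts a sample, and the neutrophil collagenase Mmp8 reached 0.370 CPM in KO_PBS replicate 4 and 0.139 CPM or less elsewhere. Mmp12 and Mmp8 lie beside Mmp13 and Mmp3 in the cluster of 10 Mmp genes on chromosome 9, between 7272514 and 7699585 (427 kb, GRCm38), of which 6 had a row in the table. Adamts19 had 0 counts in all 4 WT_PBS samples and 8, 3, 6 and 4 counts in KO_PBS, which against a floor of 3 counts over WT_PBS is at least 6.38-fold higher. It had 0 to 2 counts in each ASO1 sample of both genotypes. Adamts19 was the only member removed by the filter that was called in any setting, at an adjusted P of 0.0139 (edgeR) in KO_PBS vs WT_PBS without the filter.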

How the data were processed

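The authors deposited raw counts of reads per Ensembl gene for the 16 samples, not normalized. The labels name TRI Reagent and a stranded messenger RNA kit, and in the submitters' processing notes stand HTSeq 0.6.1p1, STAR 2.5.3a, Bowtie2 2.2.8 and cutadapt 1.10 with GRCm38, their roles unstated. The strand setting, read length and Ensembl release were not given in the sources used here. Symbols and coordinates came from GENCODE (GRCm38), which matched all 29730 identifiers. Exons of 8 members overlap a gene on the other strand.

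Counts were analysed in edgeR 4.0.16 (R 4.3.3): filterByExpr by group (14960 genes left), TMM, robust quasi-likelihood fit of 1 mean per group to all 16 samples, and Benjamini-Hochberg adjustment within a comparison, with calls at an adjusted P under 0.05. The SE is the log2FC divided by the square root of F. Two-sided exact permutation tests used log2 CPM with a prior count of 2, and with 4 against 4 samples cannot go below 0.0286. Alternatives were DESeq2 1.42.0, limma-voom (limma 3.58.1) with sample quality weights, other scalings, no filter, compared groups only, the replicate number as a block, and each sample left out. Libraries of a group differed by far more than sampling noise (mean chi-square of 21.3 or more a gene), so each counts as 1 sample. The labels do not say that samples are separate mice, and P values then measure the spread between samples, which may be technical.

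Members and gene lists were chosen with earlier results of these data known. Members were named when called, when 1 sample of a group stood apart by Dixon's rule at a group mean of at least 0.5 CPM, or when among the 2 most abundant per kb of their family. Members named outside this rule (Timp4, Loxl4, Mmp8, Mmp9, Mmp12, Mmp14, Adamts19 and those in lists of names) were added to complete a family or after their values were seen. Promoters came from RefSeq (GRCm38.p6). A result for 1 regulator is not reported here.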

Additional observations from a re-analysis of the deposited data

Results flagged for a closer look

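Of 125 group values of members with a mean of at least 0.5 CPM, 10 had 1 sample far from the other 3 of its group by Dixon's criterion at the 95% level, which chance alone flags in about 1 of 20 groups. They fell on 10 members and on 3 groups, with none in WT_ASO.

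In KO_PBS, Timp1 was high in replicate 1 at 43.4 CPM against 13.8 to 17.4 CPM in the others, and Adamts16 was high in the same replicate at 1.16 CPM against 0.283 to 0.345 CPM. Mmp3 was high in KO_PBS replicate 4 at 4.51 CPM against 0.227 to 0.634 CPM.

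In WT_PBS, Timp3 was low in replicate 1 at 169 CPM against 244 to 251 CPM, and Loxl2 was low in replicate 3 at 8.38 CPM against 10.9 to 11.1 CPM. Adamts20, a protease known from melanoblast development, was high in WT_PBS replicate 2 at 14.2 CPM against 4.47 to 5.86 CPM, and Loxl3 was high in replicate 4 at 5.64 CPM against 3.87 to 4.15 CPM.

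In KO_ASO, Loxl1 was low in replicate 1 at 6.19 CPM against 11.1 to 11.7 CPM. The aggrecanase Adamts5 was high in KO_ASO replicate 3 at 14.7 CPM against 10.6 to 11.3 CPM, and Adamts10, known for its link to fibrillin microfibrils, was high in replicate 4 at 22.8 CPM against 10.3 to 11.6 CPM.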

How the results depend on the processing

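The values of 35 single comparisons of members were recomputed under up to 23 other settings. Of the 182 values of the 8 called results, 156 kept their direction and their call and 26 lost the call, and of the 618 values of the 27 results not called, 592 stayed so, 23 were called and 3 changed sign. Timp1 kept its call in KO_PBS vs WT_PBS and in KO_ASO vs KO_PBS under all 23 settings, as did Lox and Loxl1 in KO_PBS vs WT_PBS. The sign changed for Mmp3 in KO_PBS vs WT_PBS, to -0.32 with limma-voom and to -0.62 without KO_PBS replicate 4 (-0.62 to 1.42 over all samples left out), and for Loxl4, to -0.0973 without the latter (-0.0973 to 0.57). The causes were not tested.

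The number of members called in KO_PBS vs WT_PBS was between 4 and 8 in all settings, while the calls over all genes ran from 997 to 2723. With the compared groups only, the calls gained were Timp3, Loxl2, Mmp14 and Adamts2, and Mmp13 and Adamts17 did not pass the filter and had no test. In KO_ASO vs KO_PBS it was 1 without the filter, 1 with the compared groups only, 5 with DESeq2, 6 with limma-voom and 1 to 6 when a sample was left out. The calls over all genes moved as well, from 544 of 14960 to 444 of 29730 without the filter, 300 of 14387 with the compared groups only, 1056 of 14960 with DESeq2 and 1186 of 14960 with limma-voom. Without the filter and with the compared groups only, Timp1 alone was called, and the 6 without KO_ASO replicate 4 were Timp1, Loxl1, Mmp19, Mmp23, Adamts2 and Adamts8, where 831 of 15203 genes were called. In WT_ASO vs WT_PBS it was 1 without the filter (Mmp9, where 3 of 29730 genes were called), 2 with DESeq2 and 0 to 1 when a sample was left out (where 1 to 4 genes were called). In KO_ASO vs WT_PBS it was 1 with DESeq2 and 0 to 1 when a sample was left out, in KO_ASO vs WT_ASO 1 with DESeq2, and in the interaction 3 with DESeq2 and 0 to 1 when a sample was left out. The call added by leaving out a sample in these comparisons was Mmp13, without WT_PBS replicate 2.

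Replicate numbers are shared between groups, but nothing in the labels pairs the mice. Same-numbered samples had correlated deviations above 0.1 in 11 of 24 pairs, and 14 of 16 samples correlated best with samples of their own number, a hint from the data and not from the design. With the replicate block the members called were 1 (Mmp13) in WT_ASO vs WT_PBS and 1 (Mmp13) in the interaction, 6 in KO_PBS vs WT_PBS and 3 in KO_ASO vs KO_PBS (Mmp19 gained), where 2, 126, 2322 and 752 of all 14960 genes were called, against 1, 86, 1878 and 544 without the block. Counts limit the low members: Adamts17 rested on 2 to 32 counts a sample in the comparison that called it.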

Other observations

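In both groups given ASO1, replicates 1 and 2 lay below replicates 3 and 4 for 13 of the 38 members tested (34.2%), where the same held for 987 of 14960 genes (6.60%). The members were Timp1, Timp4, Lox, Loxl2, Loxl3, Mmp2, Mmp14, Mmp19, Mmp23, Adamts2, Adamts3, Adamts6 and Adamts20. This grouping of replicates was chosen after the values were seen, and no test was made of it. Loxl2 measured 4.09 and 6.74 CPM in WT_ASO replicates 1 and 2 and 11.2 and 13.3 CPM in replicates 3 and 4, and 5.49, 8.05, 12 and 17.8 CPM in the KO_ASO replicates in the same order. The summed CPM of the 20 matrix substrates was 1090 and 1480 in WT_ASO replicates 1 and 2 and 2720 and 3190 in replicates 3 and 4, and 1230 and 1450 against 3080 and 3320 in KO_ASO, whereas the WT_PBS samples lay between 2080 and 2430. The summed CPM of the 8 fibroblast markers was 414 and 702 against 1280 and 1310 in WT_ASO, and 479 and 530 against 1190 and 1470 in KO_ASO, and its part in the pattern was not tested. What the replicate numbers stand for is not given in the sources used here.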
